A study of Mus musculus with 6 samples.

Results

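Heat shock proteins and chaperones were followed in RNA bound to tagged ribosomes at a spinal cord injury in mice. Members were the rows of the authors' unfiltered gene table named Hspa, Hspb, Hspd, Hspe or Hsph with a number (Hspa5 excepted), Hsp90, Dnaja, Dnajb or Dnajc with a number, Tcp1 or Cct with a number. The names gave 70 of 13960 rows, of which 67 could be tested. All 6 libraries came from LysMCre:Rplfl/fl > CD45.1 chimeras, with the strain given as CD45.1, after a contusion of the thoracic cord at T8. The injury site was sampled 3 days later (3 libraries) or 7 days later (3 libraries). LysM-Cre is active in macrophages, monocytes and neutrophils, and it switches on an epitope tag on a ribosomal protein (the RiboTag method), so that precipitation is meant to recover the translated RNA of those cells. Uninjured cord and unprecipitated RNA were not analysed here, so every value sets 7 days against 3 days. Whether a library holds 1 animal or a pool is not stated in the labels, so the p-values speak for the spread among these 6 libraries, which may be technical.

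Chaperones bind unfolded or partly folded proteins and help them reach their native form. Hsp70 proteins take turns holding and releasing a client as they burn ATP. J proteins (the Dnaj genes) deliver clients to Hsp70 and start its ATP cycle, and exchange factors of the Hsp110 and Bag types reset it. Hsp90 finishes kinases and steroid receptors, the barrel-shaped CCT complex folds actin and tubulin, Hspd1 and Hspe1 form the chaperonin of mitochondria, and small heat shock proteins hold unfolded proteins without ATP. Under heat or oxidative stress the factor Hsf1 binds heat shock elements, which are inverted repeats of GAA, and raises the transcription of many of these genes. In macrophages, chaperones serve the secretion of cytokines, the digestion of engulfed material and the defence against oxidants.

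Promoter windows of 250 bases before to 50 bases after each start site, from RefSeq on GRCm38.p6 (the assembly of mm10), were searched for a heat shock element of 3 inverted units, GAA, TTC and GAA with 2 free bases between neighbours, or its reverse complement (TTC, GAA, TTC with the same spacing). Of the 70 members, 56 had a window and 4 of these held a match (7.14%), beside 0.662% of all 27025 genes of the table. The 4 were Hspd1, Hspe1, Dnajb6 and Hsph1. Hspd1 and Hspe1 lie head to head, with start sites 216 bases apart, and the same 2 overlapping matches stand between them, 18 bases in all. The stretch is shown because it lies before both subunits of 1 chaperonin, and Dnajb6 because it is a called member with a match; capitals mark the matches, and every sequence reads 5′ to 3′ on the strand of its gene.
Hspd1 (chr1:55088029-55088106, minus strand): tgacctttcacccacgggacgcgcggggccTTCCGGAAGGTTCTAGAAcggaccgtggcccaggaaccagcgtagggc
Hspe1 (chr1:55088029-55088106, plus strand): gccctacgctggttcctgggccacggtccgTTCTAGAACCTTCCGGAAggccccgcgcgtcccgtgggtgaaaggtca
Dnajb6 (chr5:29735822-29735894, plus strand): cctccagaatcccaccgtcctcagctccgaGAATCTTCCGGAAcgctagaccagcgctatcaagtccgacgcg
The matches began 144 and 139 bases before the start of Hspd1 and 89 and 84 bases before that of Hspe1. The match of Dnajb6 began 46 bases before one of its start sites and 127 before another. In Hsph1 it lay after the start site. Of the members with a window, 2 of the 12 called higher at 7 days, 0 of the 11 called lower and 2 of the 30 not called held a match. A match is a run of letters and says nothing on whether Hsf1 was bound there. Only exact matches to this pattern were sought, so a window without a match is not shown to lack an element.

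The number of reads is unknown, because values are deposited as FPKM (fragments per kilobase of transcript, scaled to the mapped fragments of the library). Between 11147 and 11675 of 13042 tested genes were at 1 FPKM or more at 3 days and between 10248 and 10402 at 7 days. Markers of macrophages summed to 1487 to 1858 FPKM at 3 days and 1935 to 2169 FPKM at 7 days, with 3 of 6 tested markers higher and 2 lower; Lyz2 and Emr1 were among the rows set aside before testing. Markers of other cell types were detected, with higher sums at 3 days: neuron markers summed to 145 to 335 FPKM at 3 days and 45.05 to 57.5 FPKM at 7 days (8 of 8 called lower), astrocyte markers to 199 to 567 FPKM at 3 days and 95.8 to 119.7 FPKM at 7 days (5 of 6 lower) and endothelial markers to 41.8 to 68.4 FPKM at 3 days and 26.5 to 31.4 FPKM at 7 days (5 of 7 lower and 1 higher). Oligodendrocyte markers (7 of 7), erythroid markers (4 of 4) and fibroblast and pericyte markers (3 of 5) were also called lower. Inflammatory monocyte markers went from between 458 and 525 FPKM to between 172 and 226 FPKM (4 of 6 lower), and microglia markers from between 664 and 843 FPKM to between 2062 and 2278 FPKM (3 of 4 higher). Of 5 neutrophil markers, 1 was higher and 1 lower. The part of these shifts in the members' rises and falls was not tested. Among neuron, astrocyte and endothelial markers none was at 0 in a library. 3-day replicate 2 held the highest sums of these 3 lists. In such bulk samples fewer cells of a type and less RNA per cell cannot be told apart.

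The chaperone genes did not move one way. The small heat shock proteins Hspb1, Hspb6 and Hspb8, Hspa12a, Hspa12b and Hspa1b were lower at 7 days, the mitochondrial chaperones Hspa9 and Hspd1 and many J proteins were higher, and no member of the Hsp90 genes or the CCT complex passed the test. Calls rest on limma with Benjamini-Hochberg adjustment over all tested genes, at a threshold of 0.05. Of 67 tested members, 17 were called higher (25.4%) and 12 lower (17.9%), beside 18.8% higher and 20.3% lower among all 13042 tested genes. These shares lie near the background, so the counts as a whole are not a result about chaperones. The 3 libraries of 7 days all lay above those of 3 days for 22 members (32.8%) and below them for 18 (26.9%), beside 26.8% and 28.6% of all tested genes. The median change of the tested members was 0.15 on the log2(FPKM + 1) scale, beside -0.04 for all tested genes. Fewer members were called higher without 3-day replicate 3 (9) or 7-day replicate 1 (8), 2 (10) or 3 (7), and 6 were called lower when any 1 of the 7-day libraries was left out. Leaving out 3-day replicate 2 gave 13 higher and 9 lower. Quantile normalization gave 11 higher and 13 lower and a median change of -0.03. Among all 13042 tested genes it gave 2317 higher and 1809 lower and a median change of 0.05.

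**Figure D1:**
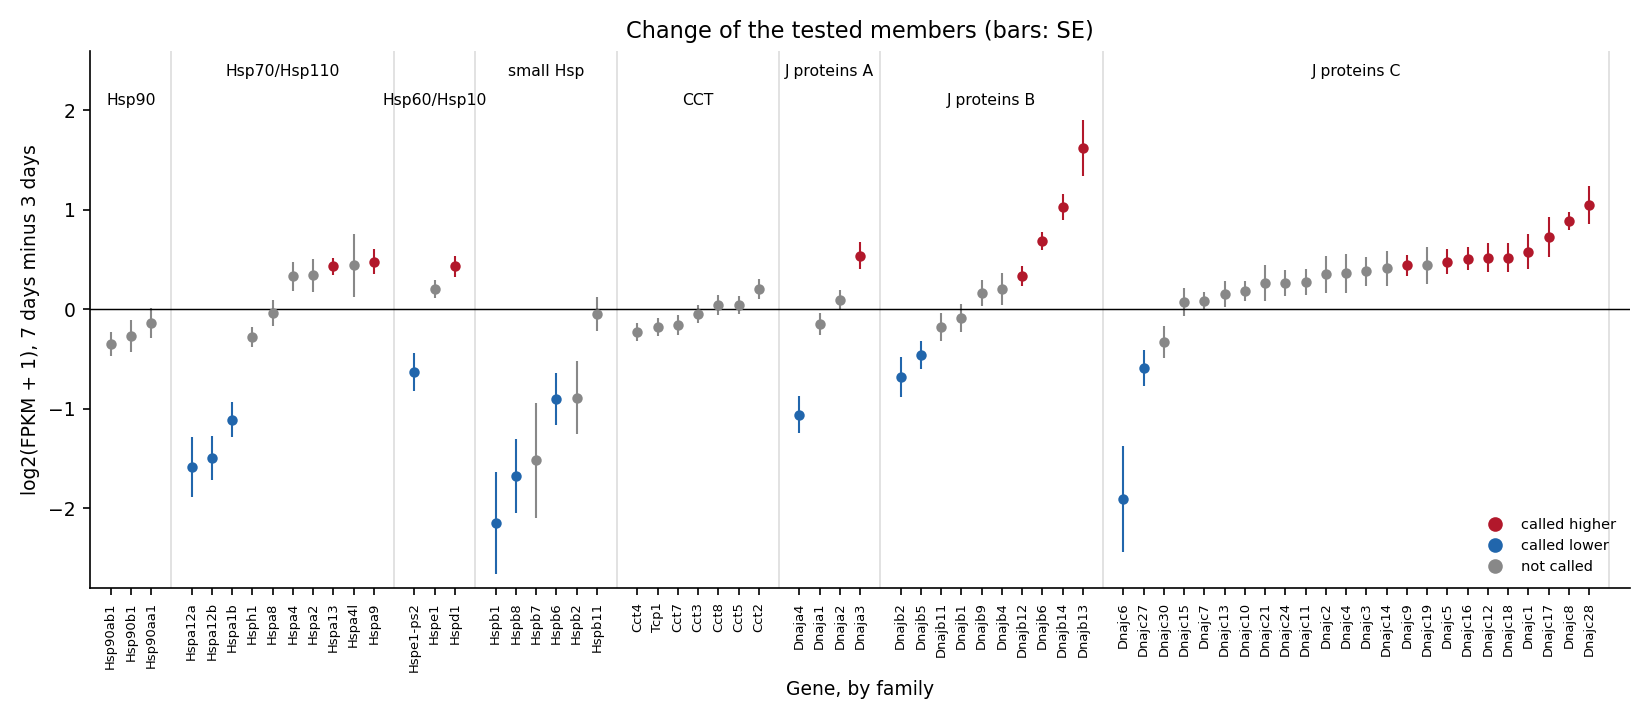
Fitted change of each of the 67 tested members, 7 days minus 3 days on the log2(FPKM + 1) scale (vertical axis), by family and, within it, by size; points are the fitted changes of 3 against 3 libraries, bars the SE, and colour the call. Changes run from -2.15 (Hspb1) to 1.62 (Dnajb13), with the CCT genes between -0.23 and 0.20.

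No Hsp90 gene was called, and Hsp90b1 and Hsp90ab1 had the highest mean FPKM of the members. Hsp90b1, the form in the endoplasmic reticulum that folds Toll-like receptors and integrins, measured 893, 719 and 902 FPKM at 3 days and 775, 620.1 and 682 FPKM at 7 days. The 2 times overlapped (log2 change -0.27 ± 0.16, SE; limma adjusted p = 0.203). Hsp90ab1, the constitutive cytosolic form, measured 531, 508 and 551 FPKM at 3 days and 428, 374 and 451 FPKM at 7 days (mm10 chromosome 17, 45567574 to 45573400). All 7-day values lay below the 3-day values, and the change of -0.35 ± 0.12 had an adjusted p of 0.0602. It was called lower with genes at 1 FPKM or more (0.0495) or 5 FPKM or more (0.0417), with the authors' filtered table (0.0487) and with quantile normalization (0.0132). Hsp90aa1, the stress-inducible cytosolic form, measured 157, 186 and 159 FPKM at 3 days and 182, 149.6 and 128 FPKM at 7 days, with overlapping times (log2 -0.14 ± 0.15; adjusted p = 0.475). Thus 0 of 3 Hsp90 genes were called by limma and 0 by the authors' deposited q-values, with 1 at an unadjusted p under 0.05. Beside this, 18.8% of all tested genes were called higher and 20.3% lower. At a mean of 50 FPKM or more, as these 3 have, the shares were 39.4% and 10.2%. A count of 0 among 3 genes is not a result about the family. Summed over the 3 genes, levels were 1581, 1414 and 1612 FPKM at 3 days and 1386, 1144 and 1261 FPKM at 7 days.

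Of 14 tested Hsp90 co-chaperones on a list of 15, 2 were called higher and 2 lower, with a median log2 change of -0.02. Neither count is above the background of 18.8% higher and 20.3% lower. Fkbp5, a glucocorticoid-induced immunophilin that holds steroid receptors in a low-affinity state, fell from 30.5 ± 9.12 to 14.7 ± 2.34 FPKM (SD, n = 3; log2 -0.98 ± 0.22, SE; adjusted p = 0.0123). Ptges3, the p23 co-chaperone that binds the closed form of Hsp90, fell from 65.7 ± 5.57 to 52.5 ± 2.58 FPKM (log2 -0.32 ± 0.10; adjusted p = 0.0395). Stub1, the ubiquitin ligase CHIP that sends clients to the proteasome, rose from 33.1 ± 2.65 to 48.4 ± 5.72 FPKM (log2 0.53 ± 0.12; adjusted p = 0.0121). Ahsa1, which speeds up the ATPase of Hsp90, rose from 71.3 ± 9.79 to 92.5 ± 3.94 FPKM (log2 0.38 ± 0.12; adjusted p = 0.0408). Stip1, the adaptor that joins Hsp70 to Hsp90, had values of 67.1, 65.8 and 73.1 FPKM at 3 days and 63.3, 50.6 and 55.9 FPKM at 7 days and was not called (adjusted p = 0.079).

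Among the Hsp70 and Hsp110 genes, 2 of 10 tested were called higher and 3 lower, shares near the 18.8% and 20.3% of all tested genes. Hspa8, the constitutive Hsc70 that also uncoats clathrin vesicles and drives chaperone-mediated autophagy, measured 426, 419.8 and 493 FPKM at 3 days and 455, 398 and 451 FPKM at 7 days. Its times overlapped (log2 -0.04 ± 0.13; adjusted p = 0.828), and the sign of its change differed between settings. The stress-inducible Hspa1b was near the bottom of the table, at 2.18, 1.603 and 2.12 FPKM at 3 days and 0.522, 0.353 and 0.239 FPKM at 7 days (mm10 chromosome 17, 34956434 to 34959239). All 7-day libraries lay under all 3-day libraries, a 5.299-fold lower mean (log2 -1.11 ± 0.18; adjusted p = 0.0034). Its call was lost with quantile normalization (adjusted p = 0.0819). Hspa1b has a near-identical neighbour, Hspa1a, which has no row in the table analysed, so the counting may have split or joined their reads and the value is uncertain.

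Hspa13, a microsomal Hsp70 that lacks the substrate-binding domain, was tight within each time, at 21.0, 21.4 and 21.8 FPKM at 3 days and 27.8, 30.4 and 29.5 FPKM at 7 days. The times did not overlap, and the rise of 0.43 ± 0.09 on the log2 scale (adjusted p = 0.00891) kept its call in all 14 alternative settings. The Hsp110 genes, which act as exchange factors for Hsp70, did not pass the test. Hspa4 measured 107, 76.6 and 88.1 FPKM at 3 days and 131, 105 and 105 FPKM at 7 days (log2 0.33 ± 0.15; adjusted p = 0.118). It was called higher without 3-day replicate 1 and with the replicate number as a block. Hsph1, a heat-inducible Hsp110, measured 34.8, 33.03 and 34.7 FPKM at 3 days and 30.3, 24.8 and 28.9 FPKM at 7 days. Its 7-day values all lay below its 3-day values (log2 -0.28 ± 0.10; adjusted p = 0.0658), and it was called lower with quantile normalization alone (0.0154). Hspa4l measured 8.62, 9.93 and 8.03 FPKM at 3 days and 10.04, 8.31 and 21.97 FPKM at 7 days; 7-day replicate 3 stood apart from the other 5 libraries, and without it the log2 change was 0.04 in place of 0.44. Hspa2, best known from testis, was low throughout, at 2.94, 3.93 and 3.68 FPKM at 3 days and 4.19, 4.29 and 5.65 FPKM at 7 days (adjusted p = 0.15).

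Of the small heat shock proteins, Hspb1, Hspb6 and Hspb8 were called lower, all at low levels. Hspb1 (Hsp27), which caps actin filaments and is abundant in endothelium and in reactive glia, measured 3.06, 18.5 and 6.42 FPKM at 3 days and 0.847, 0.672 and 1.18 FPKM at 7 days (mm10 chromosome 5, 135887970 to 135890081). Every 3-day value was above every 7-day value, with 3-day replicate 2 far above the other libraries. The mean was 10.3-fold lower at 7 days (log2 -2.15 ± 0.51; adjusted p = 0.0151). Hspb8, which works with Bag3 in the selective autophagy of misfolded proteins, measured 2.94, 9.09 and 8.55 FPKM at 3 days and 0.822, 1.32 and 1.73 FPKM at 7 days (log2 -1.68 ± 0.37; adjusted p = 0.0116). It kept its call in all 13 settings that could be run for it. Hspb6, a small heat shock protein of muscle, measured 1.497, 3.71 and 2.49 FPKM at 3 days and 0.565, 1.005 and 1.004 FPKM at 7 days (log2 -0.90 ± 0.26; adjusted p = 0.0292). Its times did not overlap, but its call was lost with quantile normalization (adjusted p = 0.230) and when any 1 library other than 3-day replicate 1 was left out.

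The remaining small heat shock proteins were not called. Hspb7, of heart and muscle, measured 0.557, 1.09 and 7.58 FPKM at 3 days and 0.0361, 0.0597 and 0.0882 FPKM at 7 days, with 3-day replicate 3 far above the rest (log2 -1.52 ± 0.58; adjusted p = 0.073). It was called lower without that library (log2 -0.77; adjusted p = 0.0278), without 3-day replicate 1 and with a pseudocount of 0.1. Hspb2 measured 0.333, 2.84 and 1.099 FPKM at 3 days and 0.205, 0.407 and 0 FPKM at 7 days and overlaps Cryab on the other strand, so its reads cannot be told apart from those of Cryab unless the counting used strand, which is not given in the sources used here. Hspb11, which despite its name is a subunit of intraflagellar transport, measured 8.76, 11.8 and 9.39 FPKM at 3 days and 8.24, 11.6 and 9.104 FPKM at 7 days with overlapping times. In all, 3 of 6 small heat shock genes were called lower and 0 higher, beside the 20.3% of all genes called lower. Of tested genes with a mean under 5 FPKM, as Hspb2, Hspb6, Hspb7 and Hspb8 have, 29.6% were called lower and 4.54% higher. Summed, they held 17.1, 46.97 and 35.5 FPKM at 3 days and 10.7, 15.1 and 13.1 FPKM at 7 days. Leaving out 3-day replicate 1 gave 5 called lower, leaving out 7-day replicates 1 or 3 gave 2 each, and leaving out 3-day replicate 2 gave 2, of which Hspb1 then changed by -1.54 (adjusted p = 0.0148). Leaving out 7-day replicate 2 left 1 called, and Hspb1 had an adjusted p of 0.0542. In the same libraries the summed markers of neurons, astrocytes and endothelium given above were also highest in 3-day replicate 2 and lower at 7 days, and their part in these falls was not tested. That library was the highest of the 3-day libraries for 5301 of 13042 tested genes, and for 2773 of the 4975 with a mean under 5 FPKM.

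Of the other members called lower, 4 are described next. Hspa12a, a distant Hsp70 relative known from brain, measured 6.08, 14.3 and 6.60 FPKM at 3 days and 2.14, 2.44 and 1.78 FPKM at 7 days (log2 -1.59 ± 0.30; adjusted p = 0.00622; mm10 chromosome 19, 58795848 to 58860929). The times did not overlap, and without 3-day replicate 2 the change was -1.24 (adjusted p = 0.00562). Hspa12b, its endothelial relative, measured 1.78, 3.77 and 2.81 FPKM at 3 days and 0.256, 0.361 and 0.313 FPKM at 7 days, 8.996-fold lower at 7 days (log2 -1.50 ± 0.22; adjusted p = 0.00273). Dnajc6, the neuronal auxilin that brings Hsc70 to clathrin coats, measured 11.4, 42.7 and 12.3 FPKM at 3 days and 3.302, 7.87 and 2.55 FPKM at 7 days. It was highest in 3-day replicate 2 and, within 7 days, in replicate 2, and the times did not overlap (log2 -1.91 ± 0.53; adjusted p = 0.0271). Without 3-day replicate 2 the change was -1.32 with an adjusted p of 0.0533. The call was also lost without 7-day replicate 1 (0.0788) or 3 (0.0884). Dnajb2, a J protein enriched in neurons that feeds clients to the proteasome, measured 7.56, 12.8 and 8.35 FPKM at 3 days and 6.16, 4.71 and 5.61 FPKM at 7 days (log2 -0.68 ± 0.20; adjusted p = 0.0349). It lost its call in 7 settings, with adjusted p up to 0.111. Neuron markers were lower in 8 of 8 and endothelial markers in 5 of 7 in these libraries, and their part was not tested.

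**Figure D2:**
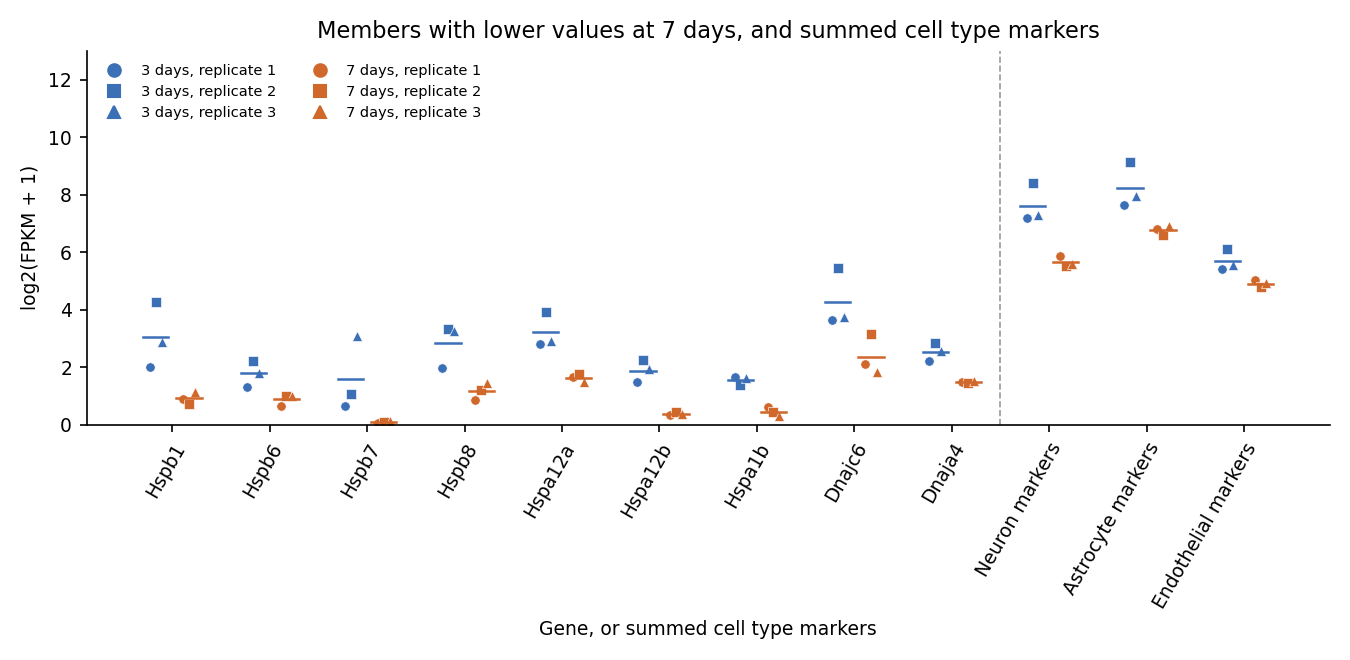
Values of 9 members with lower values at 7 days (left of the dashed line) and summed FPKM of 3 cell type marker lists (right), as log2(FPKM + 1); each point is 1 library, colour is the time, shape the replicate and the line the mean of the 3 log2 values. For 8 of the members the plotted fall was called, and Hspb7 was not; the squares of 3-day replicate 2 are the highest 3-day points of Hspb1, Dnajc6 and all 3 marker lists.

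Of the chaperones of the mitochondrial matrix, Hspa9, Hspd1 and Dnaja3 were called higher at 7 days, each by less than 2-fold. Hspa9 (mortalin), the motor that pulls imported proteins into the matrix, measured 188, 145 and 159.9 FPKM at 3 days and 249, 225 and 211 FPKM at 7 days, 1.39-fold higher in the mean (log2 0.48 ± 0.13; adjusted p = 0.0234). Hspd1 (Hsp60), the matrix chaperonin, measured 173, 143 and 162 FPKM at 3 days and 234, 203 and 208 FPKM at 7 days, 1.35-fold higher (log2 0.43 ± 0.11; adjusted p = 0.0231; mm10 chromosome 1, 55076289 to 55087870). Its lid Hspe1 (Hsp10), whose promoter window holds the stretch printed above, measured 91.8, 92.4 and 99.2 FPKM at 3 days and 107, 115 and 103 FPKM at 7 days. All 3 genes were higher in each 7-day library than in any 3-day library, but the change of Hspe1 was 0.20 ± 0.09 and was not called (adjusted p = 0.122). Whether the changes of Hspd1 and Hspe1 differ was not tested. Dnaja3, the J protein of mortalin, measured 19.2, 26.5 and 22.5 FPKM at 3 days and 30.6, 33.3 and 36.5 FPKM at 7 days (log2 0.54 ± 0.14; adjusted p = 0.0184).

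These mitochondrial calls did not hold with another scaling or in several fits with 1 library left out. With quantile normalization, Hspa9, Hspd1 and Dnaja3 were not called (adjusted p up to 0.232) and Hspe1 had a change of -0.02. Hspd1 lost its call when any 1 library other than 3-day replicate 1 was left out, Hspa9 when any 1 other than 3-day replicate 1 and 7-day replicate 3 was, and Dnaja3 without 3-day replicate 3 or 7-day replicates 2 or 3. In those fits the log2 changes ran from 0.36 to 0.49 for Hspd1, 0.39 to 0.58 for Hspa9 and 0.43 to 0.66 for Dnaja3. Fewer of all tested genes were called higher then too, 1572 to 2207 beside 2453 in the main fit. Of 8 tested chaperones and J proteins of mitochondria, a set put together after values were seen, 3 were called higher (37.5%) and 0 lower (4 at an unadjusted p under 0.05), with a median change of 0.35. Of all tested genes 18.8% were called higher, and of those with a mean of 50 FPKM or more, as Hspa9 and Hspd1 have, 39.4%, so the share is not a result about the set. The import J protein Dnajc19 measured 58.6, 73.1 and 81.5 FPKM at 3 days and 85.3, 124 and 83.3 FPKM at 7 days (adjusted p = 0.0979) and Dnajc15 measured 16.3, 18.3 and 18.7 FPKM at 3 days and 15.7, 22.1 and 18.6 FPKM at 7 days, with overlapping times. Of 5 further mitochondrial chaperones and proteases, 1 was called higher: Clpx, the unfoldase of the matrix protease, rose from 22.9 ± 1.16 to 34.8 ± 2.94 FPKM (log2 0.58 ± 0.10; adjusted p = 0.0047). Trap1, the mitochondrial Hsp90, measured 33.7, 36.6 and 38.2 FPKM at 3 days and 40.4, 40.9 and 41.1 FPKM at 7 days and was not called (adjusted p = 0.162).

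The CCT complex has 8 subunits in its ring, and none of those tested was called. Tcp1 (subunit alpha) measured 192, 186 and 198 FPKM at 3 days and 170.1, 167 and 169 FPKM at 7 days, with all 7-day values below all 3-day values (log2 -0.18 ± 0.09; adjusted p = 0.135). Cct2 went the other way, at 117, 104 and 117 FPKM at 3 days and 126, 125 and 139 FPKM at 7 days (log2 0.20 ± 0.10; adjusted p = 0.133). Cct5 measured 128, 124 and 137 FPKM at 3 days and 131, 133 and 136 FPKM at 7 days and Cct8 112, 106 and 116 FPKM at 3 days and 127, 107 and 109 FPKM at 7 days; in both the times overlapped. Cct3 measured 71.9, 67.6 and 75.7 FPKM at 3 days and 71.5, 69.1 and 67.6 FPKM at 7 days and Cct7 95.2, 81.8 and 85.5 FPKM at 3 days and 83.5, 75.0 and 75.5 FPKM at 7 days, also with overlap. Cct4, the least abundant subunit, measured 40.9, 43.7 and 43.8 FPKM at 3 days and 35.01, 38.97 and 35.1 FPKM at 7 days (log2 -0.23 ± 0.09; adjusted p = 0.0809). Limma called 0 of 7 tested subunits and the authors' deposited q-values 0, with 1 at an unadjusted p under 0.05. Of all tested genes 18.8% were called higher and 20.3% lower. Of those with a mean of 50 FPKM or more, as all tested subunits but Cct4 have, 39.4% were higher and 10.2% lower. The comparison of 7 genes with these shares was not tested. Fitted changes ran from -0.23 to 0.20, and quantile normalization called 4 lower (Cct3, Cct4, Cct7 and Tcp1). Summed over the 8 rows, CCT levels were 880.3, 826 and 886 FPKM at 3 days and 874, 837 and 849 FPKM at 7 days. Prefoldin, which hands actin and tubulin chains to CCT, moved in both directions. Pfdn2 fell from 34.3 ± 1.85 to 15.3 ± 0.225 FPKM (log2 -1.12 ± 0.09; adjusted p = 0.0004), while Vbp1 (prefoldin subunit 3) rose from 43.3 ± 0.527 to 54.4 ± 2.97 FPKM (log2 0.32 ± 0.09; adjusted p = 0.023). Pfdn1 and Pfdn4 were not called. Pdcl, a phosducin-like cofactor of CCT, rose from 24.1 ± 2.84 to 36.7 ± 3.46 FPKM, the third called gene of 7 tested on that list.

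**Figure D3:**
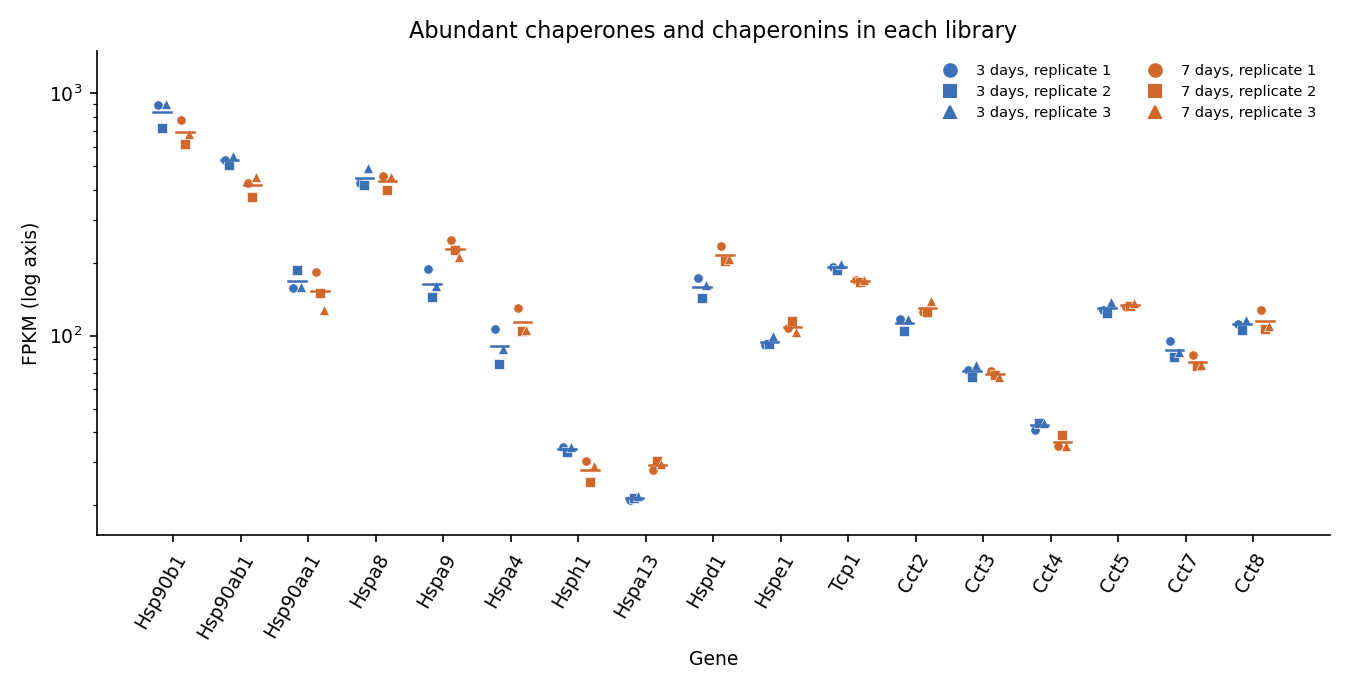
FPKM on a log axis of 17 chaperones of the Hsp90, Hsp70, Hsp110, mitochondrial and CCT groups in each library; points are libraries, coloured by time and shaped by replicate, and lines are the means of 3. Of these genes Hspa9, Hspa13 and Hspd1 were called higher at 7 days and the others were not called; Hsp90b1 is the highest, between 620.1 and 902 FPKM.

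J proteins made up most of the members. Of 38 tested, 14 were called higher (36.8%) and 5 lower (13.2%), with a median log2 change of 0.30. Among all tested genes 18.8% were higher and 20.3% lower, and among those with a mean of 5 to 50 FPKM 24.9% and 15.5%, so more higher than lower calls is also the background at the level of many J proteins. The 24 tested Dnajc genes held 9 of the higher calls (37.5%) and 2 of the lower (8.33%). Their count of higher calls was 5 without 3-day replicate 3 or with quantile normalization, and 3, 6 and 2 without 7-day replicates 1, 2 and 3. Summed over the 39 rows, their levels were 1111, 1038 and 1069 FPKM at 3 days and 1315, 1269 and 1219.7 FPKM at 7 days. The largest rise was that of Dnajb13, known from the radial spokes of cilia and flagella, at 1.999, 3.33 and 4.05 FPKM at 3 days and 16.3, 7.95 and 11.4 FPKM at 7 days (log2 1.62 ± 0.28; adjusted p = 0.00493; mm10 chromosome 7, 100502949 to 100533223). Every 7-day value lay well above every 3-day value, and the call held in all 14 alternative settings.

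Several J proteins of the endoplasmic reticulum rose. Dnajb14, which sits in the membrane with its J domain in the cytosol and aids the removal of misfolded membrane proteins, measured 17.4, 13.2 and 14.3 FPKM at 3 days and 34.3, 28.8 and 31.1 FPKM at 7 days (mm10 chromosome 3, 137867821 to 137916712). The mean was 2.101-fold higher at 7 days (log2 1.03 ± 0.13; adjusted p = 0.00148), and the times were well apart. Its close relative Dnajb12 measured 8.903, 8.94 and 9.07 FPKM at 3 days and 11.4, 11.95 and 11.3 FPKM at 7 days (log2 0.33 ± 0.10; adjusted p = 0.0391), and its call was lost when any 1 library was left out or with the replicate number as a block. Dnajc18, of the same group, measured 17.96, 25.98 and 18.8 FPKM at 3 days and 32.7, 29.1 and 28.4 FPKM at 7 days (adjusted p = 0.0314), and was not called when any 1 library other than 3-day replicate 2 was left out, or with quantile normalization. Dnajc1, which docks Hspa5 at the ribosome, measured 14.7, 9.96 and 12.3 FPKM at 3 days and 21.4, 14.9 and 20.4 FPKM at 7 days (adjusted p = 0.0405), and lost its call in 6 settings, with adjusted p up to 0.124.

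Lumenal J proteins of the unfolded protein response were mixed. Dnajc3 (p58IPK), which restrains the kinase PERK, measured 71.5, 48.6 and 63.1 FPKM at 3 days and 83.2, 76.6 and 77.03 FPKM at 7 days. Its times did not overlap and its change of 0.38 ± 0.15 had an adjusted p of 0.0719. The authors' deposited table gives a q-value of 0.0311. Dnajc3 was called higher without 3-day replicate 1 (limma adjusted p = 0.0289) and with the replicate number as a block (0.0459). Dnajb9, a repressor of the sensor IRE1, measured 31.8, 33.5 and 33.2 FPKM at 3 days and 36.96, 42.9 and 31.1 FPKM at 7 days, and Dnajb11, a cofactor of Hspa5, measured 159, 114 and 151 FPKM at 3 days and 129, 118 and 124 FPKM at 7 days. Neither was called in the main fit and the times overlapped. Without 3-day replicate 2, Dnajb11 was called lower (log2 -0.32, limma adjusted p = 0.0383). Of 11 chaperones of the endoplasmic reticulum, also grouped after values were seen, 5 were called higher and 0 lower. The 5 were the 4 membrane J proteins above and Hspa13. The 6 not called were Hsp90b1, Dnajb9, Dnajb11, Dnajc3, Dnajc10 and Dnajc14. Of the 11, 6 had an unadjusted p under 0.05. Dnajc16, described below, was also called higher but was not placed in the set. Beside the 45.5% higher in the set stand 18.8% higher and 20.3% lower of all tested genes. Of those with a mean of 5 to 50 FPKM, 24.9% were higher and 15.5% lower. Among their cofactors, Hyou1, the exchange factor of Hspa5 that the unfolded protein response induces, fell from 108 ± 25.1 to 56.3 ± 4.73 FPKM (log2 -0.90 ± 0.18; adjusted p = 0.00733). Sil1, the other exchange factor of Hspa5, rose from 24.1 ± 2.82 to 61.5 ± 6.79 FPKM (log2 1.32 ± 0.12; adjusted p = 0.000624). Hspa5 itself (BiP) measured 834, 616 and 821 FPKM at 3 days and 659, 501 and 566 FPKM at 7 days and was not called (adjusted p = 0.117).

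J proteins of the nucleus and cytosol were also among the called genes. Dnajc8, a spliceosome-associated J protein, had very even values of 60.7, 59.7 and 59.8 FPKM at 3 days and 113, 117 and 105 FPKM at 7 days (mm10 chromosome 4, 132535550 to 132553781). This 1.86-fold rise had the lowest adjusted p of the members (log2 0.89 ± 0.09; adjusted p = 0.000681). Dnajb6, which keeps polyglutamine proteins from aggregating and whose promoter window holds a match to the heat shock element, measured 22.3, 20.8 and 22.2 FPKM at 3 days and 36.4, 35.2 and 35.4 FPKM at 7 days (log2 0.69 ± 0.09; adjusted p = 0.00151; mm10 chromosome 5, 29735738 to 29786442). Both held their calls in all 14 settings. Dnajc9, a histone chaperone, measured 12.4, 14.3 and 12.4 FPKM at 3 days and 19.8, 17.1 and 17.2 FPKM at 7 days (adjusted p = 0.0211), and was not called without 3-day replicate 3 or 7-day replicates 1 or 3. Dnajc5 (cysteine string protein), which guards vesicle release and is abundant in neurons, measured 20.99, 15.9 and 19.7 FPKM at 3 days and 26.7, 24.9 and 27.8 FPKM at 7 days (adjusted p = 0.0219), and was not called with quantile normalization or without 7-day replicates 1 or 3.

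Other called J proteins were less abundant or less even. Dnajc17 measured 19.1, 18.5 and 15.1 FPKM at 3 days and 31.8, 22.02 and 37.3 FPKM at 7 days (adjusted p = 0.023), overlaps Gchfr and Zfyve19 on the other strand, and lost its call in 5 settings (adjusted p up to 0.0767). Dnajc16 measured 10.5, 12.6 and 13.98 FPKM at 3 days and 17.3, 18.01 and 18.5 FPKM at 7 days (adjusted p = 0.0167) and lost it without 7-day replicates 2 or 3. Dnajc12, a partner of the aromatic amino acid hydroxylases, measured 2.77, 3.32 and 3.54 FPKM at 3 days and 4.97, 5.48 and 4.62 FPKM at 7 days (adjusted p = 0.0293) and lost it in 6 settings. Below 5 FPKM, Dnajc28 rose from 1.64 ± 0.431 to 4.46 ± 0.868 FPKM (log2 1.05 ± 0.19; adjusted p = 0.0058). Dnaja4 measured 3.62, 6.26 and 4.89 FPKM at 3 days and 1.78, 1.74 and 1.88 FPKM at 7 days and was called lower (log2 -1.06 ± 0.19; adjusted p = 0.0059). Dnajb5 and Dnajc27 were also called lower, from 3.01 ± 0.103 to 1.91 ± 0.0285 FPKM and from 4.94 ± 1.09 to 2.903 ± 0.346 FPKM, and lost their calls in 8 and 7 settings.

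The general J partners of cytosolic Hsp70 were not called. Dnaja1 measured 109, 96.4 and 94.1 FPKM at 3 days and 99.99, 87.1 and 82.2 FPKM at 7 days (adjusted p = 0.296), and Dnaja2 88.4, 80.5 and 79.9 FPKM at 3 days and 94.2, 89.1 and 82.5 FPKM at 7 days (adjusted p = 0.447). Dnajb1 (Hsp40), the J protein most strongly tied to the heat shock response, measured 8.37, 9.86 and 11.1 FPKM at 3 days and 8.96, 9.74 and 8.52 FPKM at 7 days, with full overlap (log2 -0.09 ± 0.14; adjusted p = 0.607). The other 11 uncalled J proteins tested had fitted changes from -0.33 (Dnajc30) to 0.41 (Dnajc14).

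Of 4 tested genes on the list of heat shock factors, 2 were called higher and 0 lower, beside 18.8% and 20.3% of all tested genes. With 4 genes this count is not a result about the list. Hsf1, the master regulator, was low and rose from 3.01 ± 0.393 to 5.38 ± 1.08 FPKM (log2 0.66 ± 0.18; adjusted p = 0.0232). Hsbp1, which binds and dampens Hsf1, rose from 62.99 ± 7.05 to 101 ± 12.5 FPKM (log2 0.67 ± 0.13; adjusted p = 0.00733). Hsf2 (log2 -0.21 ± 0.22; adjusted p = 0.456) and Hsf4 (log2 -0.18 ± 0.15; adjusted p = 0.361) were not called. Bag3, itself a heat shock target and the partner of Hspb8, fell from 18.6 ± 0.655 to 13.2 ± 0.933 FPKM (log2 -0.47 ± 0.10; adjusted p = 0.0109). Bag1, Bag4 and Bag5 rose, from 117 ± 15.8 to 158 ± 6.59 FPKM, from 5.78 ± 0.265 to 9.46 ± 0.872 FPKM and from 9.34 ± 0.673 to 12.8 ± 0.452 FPKM (adjusted p = 0.0264, 0.00826 and 0.0224), while Bag2 and Bag6 were not called (adjusted p = 0.458 and 0.468). Over the whole list of 47 factors and partners, 44 were tested, 12 called higher and 5 lower, beside 18.8% and 20.3% of all tested genes. The median log2 change was 0.05. Without 3-day replicate 3, 7 were called higher, without 7-day replicates 1, 2 or 3 there were 6, 7 and 7, and with quantile normalization there were 8. Serpinh1, the collagen chaperone, measured 7.46, 21.2 and 10.3 FPKM at 3 days and 3.501, 6.07 and 6.45 FPKM at 7 days, highest in 3-day replicate 2, and was not called (adjusted p = 0.0538).

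Calls of members fell at different levels of expression. Of the 21 tested members with a mean of 50 FPKM or more over the 6 libraries, 3 were called higher (Dnajc8, Hspa9 and Hspd1) and 0 lower, with 6 at an unadjusted p under 0.05 and 4 by the authors' deposited q-values. Among all 1494 tested genes at that level, 39.4% were called higher and 10.2% lower. Of the 14 members with a mean under 5 FPKM, 2 were called higher and 8 lower, beside 4.54% and 29.6% of the 4975 tested genes under that level. The 32 in between had 12 higher and 4 lower, beside 24.9% and 15.5% of the 6573 tested genes at that level. These counts are descriptions, and no test of the members against other genes was made.

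**Figure D4:**
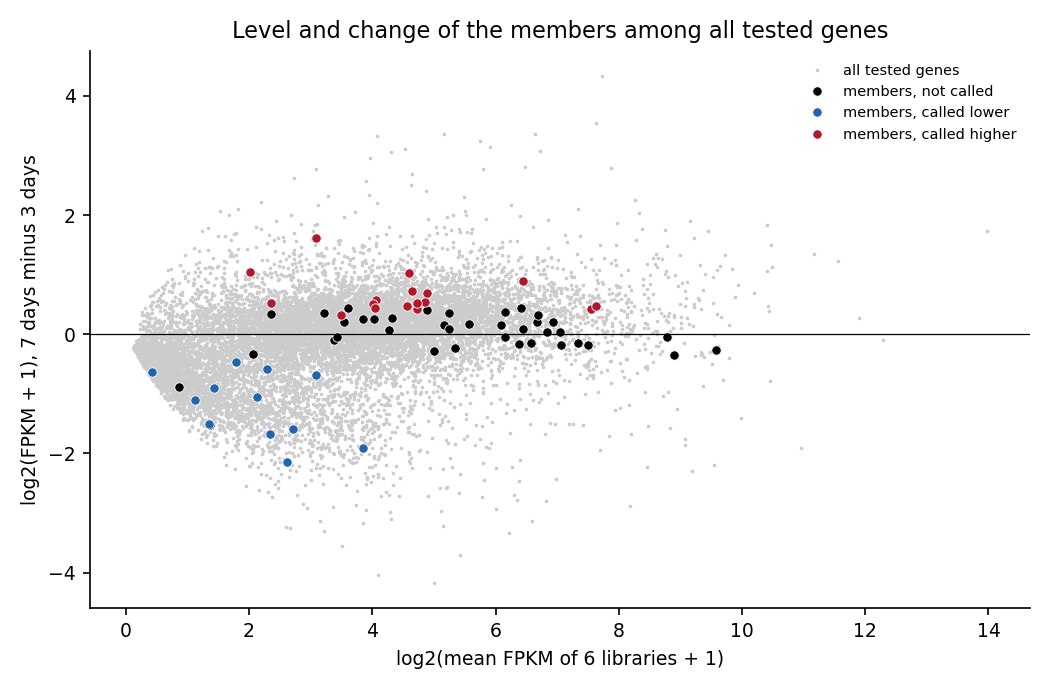
Change from 3 to 7 days on the log2(FPKM + 1) scale against log2 of the mean FPKM of the 6 libraries plus 1, for all 13042 tested genes (grey) and the 67 tested members (coloured by call). All 12 members called lower had a mean under 50 FPKM, and the 3 most abundant members, on the right, lie between -0.35 and -0.04.

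Of the members, 3 had library values that miss the authors' own mean by over 1% and were not tested. Cct6a measured 124, 114 and 113 FPKM at 3 days and 129.9, 122 and 117 FPKM at 7 days, Hspa14 33.3, 27.6 and 34.5 FPKM at 3 days and 33.6, 35.2 and 33.9 FPKM at 7 days and Dnajc25 14.3, 15.01 and 16.2 FPKM at 3 days and 14.1, 12.99 and 12.3 FPKM at 7 days. In Cct6a and Hspa14 the times overlapped, and in Dnajc25 the 7-day values lay below the 3-day values. Genes on the other strand overlap other members too, by GENCODE M21. Among members with values above, leaving out small RNAs, these are Hsp90ab1 with Slc35b2, Hsp90b1 with 1810014B01Rik, Hspa2 with 4930426I24Rik, Hspe1 with Hspd1, Tcp1 with Acat3, Cct6a with Psph, Cct7 with Pradc1 and Cct8 with Usp16. Of the J proteins, these are Dnajb6 with Gm5129, Dnajb13 with Gm8463, Dnajb14 with Gm40155, Dnajc3 with Uggt2 and Gm49768, Dnajc17 as given above, Dnajc19 with Gm43668 and Dnajc28 with Gm15964. Of members with only a change given above, Dnajc14 overlaps Ormdl2 and Dnajc30 overlaps Bud23 on the other strand. The values of all these are uncertain in the same way as that of Hspb2. On the same strand, Dnajc25 overlaps Gm20503 and Dnajc14 overlaps Sarnp, so counting by strand would not separate their reads. One further row is a pseudogene of Hspe1, Hspe1-ps2, which was under 1 FPKM in every library (0.919, 0.389 and 0.598 FPKM at 3 days and 0.0621, 0 and 0.0852 FPKM at 7 days). It was called lower (adjusted p = 0.0328), lost the call in 8 settings, and spans other genes, so its value is uncertain. Of the 29 calls, 25 also had a q-value of at most 0.05 in the authors' deposited table, 0 of them with the opposite sign. Called here alone were Dnajb12, Dnajc16, Dnajc18 and Hspe1-ps2, and by the authors alone Dnajc3, Hspa4l and Hspb7. The authors' filtered table keeps 63 of the 70 members and leaves out Hspb1, Hspb2, Hspb7, Hspb8, Hspa12b, Dnaja4 and Dnajc6.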

How the data were processed

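Libraries were made with the ScriptSeq v2 kit from RiboTag precipitates, per the labels' protocols. TopHat2 2.0.12, Cufflinks 2.2, Cuffdiff 2.2.1 and mm10 are named in the submitters' processing notes, with no role or order. The authors deposited, per the file headers, an FPKM value per gene and library, mean FPKM per time, a log2 fold change, a test statistic (a score, not used) and a p-value and q-value. How libraries were scaled to each other and how the filtered table was made are not given in the sources used here. From the unfiltered table, 918 of 13960 rows were set aside: test status other than OK, library values missing the authors' mean by over 1%, 0 beside 100 FPKM or more, or a symbol on several rows. The 13042 others were tested as log2(FPKM + 1) with limma 3.58.1 (R 4.3.3, mean-dependent prior variance), 7 minus 3 days, two-sided, Benjamini-Hochberg adjusted; an exact test of 3 against 3 cannot go below 0.1. Fold changes on this scale understate those of low genes. Alternatives were another pseudocount, filters, scalings, a constant prior, the replicate number as a block, and each library left out. The scripts were tested on simulated data, with 50 genes changed at each size, far fewer than the genes called here. The changed genes were drawn from those at about 5 FPKM or more, so the shares called do not cover members below that level. Of genes changed by 0.5 on the log2 scale 16% were called, by 1 84%, by -1 82% and by 2 100%. An uncalled gene is therefore not shown to be unchanged.

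The members and lists were chosen with earlier results of these data known. Values are given for a set list of members, any other called member with a larger time mean of 5 FPKM or more, the 15 most abundant and those set aside. Others (Hspa12b, Hspb2, Hspb7, Hspb11, Dnaja2, Dnaja4, Dnajb5, Dnajc15, Dnajc19, Dnajc27, Dnajc28, Hspe1-ps2) and the sets by organelle were chosen after values were seen. Protein sequences were not used here. Python 3.11.15, numpy 2.4.6, pandas 2.3.3 and matplotlib 3.10.9 did the rest.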

Additional observations from a re-analysis of the deposited data

How the results depend on the processing

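Of 29 called members, 10 kept the call in every alternative run (Dnaja4, Dnajb6, Dnajb13, Dnajb14, Dnajc8, Dnajc28, Hspa12a, Hspa12b, Hspa13 and Hspb8), and 0 of the 29 changed sign. The other 19 lost it in 1 or more, and 16 of the 38 uncalled members were called in 1 or more. Members called higher numbered 11 with quantile normalization and 7 to 18 with each library left out, and members called lower 6 with genes at 5 FPKM or more and 6 to 12 with each library left out. The filter at 5 FPKM takes Dnaja4, Dnajb5, Dnajc27, Hspa12b, Hspa1b, Hspb6 and Hspe1-ps2 out of the fit. Members called lower in the main fit that stay under this filter all kept their calls, and Hsp90ab1 was added. All genes called higher numbered 1572 to 2207 with each library left out. All genes called lower numbered 1697 to 2565 then, 1487 with genes at 5 FPKM or more and 1419 with the authors' filtered table. Both filters leave genes out of the fit. The replicate block gave 17 members higher and 8 lower, and 2450 and 2425 genes. The labels do not say that same-numbered libraries pair, so the main fit took no pairs. Deviations from the time means correlated over genes at r of 0.0995, 0.00545 and 0.00465 for numbers 1, 2 and 3. Between unlike numbers r ran from -0.0517 to 0.0428, and such values cannot exclude pairing. Signs turned in 14 uncalled members. With quantile normalization the changes were -0.03 (Cct2), -0.18 (Cct5), -0.17 (Cct8), -0.13 (Dnaja2), -0.05 (Dnajb9), -0.04 (Dnajc10), -0.09 (Dnajc13), -0.02 (Dnajc15 and Hspe1), 0.03 (Dnajc30) and -0.12 (Dnajc7), and the members' median was -0.03. With median centring they were 0.04 (Cct3 and Hspb11) and 0.05 (Hspa8). With each library left out, Cct8 ran from -0.04 to 0.08, Dnajc15 from -0.05 to 0.19 and Hspa8 from -0.08 to 0.04. Without 3-day replicate 2, Hspb11 was at 0.07, and without 3-day replicate 3, Hspa8 at 0.04. Without 7-day replicate 1, Cct8 was at -0.04 and Hspb11 at 0.05, and without 7-day replicate 2, Dnajc15 was at -0.05 and Hspa8 at 0.03. Read depth is not recorded, so no counting error can be given.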
